A study of Homo sapiens with 3 samples.

Results

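The APOBEC3 genes encode cytidine deaminases that turn cytosine into uracil in single-stranded DNA, and they lie side by side in one cluster on chromosome 22. They are known as restriction factors against retroviruses and retroelements, and the mutations that some of them leave in nuclear DNA are a common feature of bladder cancer. Uracil left by deamination is removed by base excision repair, so the enzymes and the repair genes are usually read together. The members described here are the 7 genes APOBEC3A, APOBEC3B, APOBEC3C, APOBEC3D, APOBEC3F, APOBEC3G and APOBEC3H, chosen by gene symbol among the 29960 genes of the deposited table. All 7 were found, each in 1 row, on the plus strand of chromosome 22 between 39348746 (start of APOBEC3A) and 39500072 (end of APOBEC3H) in hg19.

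RNA was sequenced from 5637 cells, an established human bladder cancer line, in the parental form (genotype labelled WT) and as a gemcitabine-resistant derivative of the same line. Gemcitabine is a cytidine analog that blocks DNA synthesis. By the methods, each library is 1 single-cell clone, with 3 clones per group, and by the labels all cells were grown in RPMI medium with serum and were untreated when collected. The labels describe the resistant cells as made by acute treatment and the methods by continuous exposure. Counts were used for the 3 libraries with a sample label, parental 1, resistant 1 and resistant 2, and the authors' group means stand beside them.

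The 3 libraries held 14475531, 15836788 and 17461941 reads on genes in that order. Of 10 urothelial and epithelial markers all were read, with KRT19, KRT8 and KRT7 highest. Of their log2 ratios of resistant over parental (edgeR) 8 were below 0 and 2 above, with a median of -0.59 beside 0.03 over all genes tested. KRT5, a basal keratin, was among those lower in resistant 1 and 2 than in parental 1. KRT5 was at 272 CPM (reads scaled to library size after TMM) in parental 1 and at 9.78 and 13.8 CPM in resistant 1 and 2 (log2 ratio -4.52 ± 0.38 SE, adjusted p = 0.000598, edgeR), and the authors' group means gave -2.49. KRT5 had 160 and 240 reads in resistant 1 and 2, beside a resistant group mean of 2047 normalized counts. Parental 1 had 3829 reads, beside a parental group mean of 11544. The ratio in the 3 libraries thus need not hold for every clone. White blood cells are rich in several APOBEC3 transcripts, and their markers were near 0: the 7 lymphocyte markers in the table summed to 1.14, 1.47 and 0.518 CPM and the 7 myeloid markers to 0.639, 1.65 and 1.38 CPM in parental 1, resistant 1 and resistant 2. CD3D, S100A12 and CD163 had 0 reads in each library. In bulk RNA, fewer cells of a type and less RNA per cell cannot be told apart.

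The APOBEC3 genes arose by duplication, and the stretch that holds the catalytic zinc shows how alike they are. It is given here as coding DNA of the GENCODE release 29 transcripts, 5′ to 3′, because members that share such stretches share reads. The capitals mark the codons of the histidine, the glutamate and both cysteines of the zinc site. APOBEC3A, APOBEC3C and APOBEC3H carry 1 such site, and APOBEC3B, APOBEC3D, APOBEC3F and APOBEC3G carry 2.
APOBEC3A, and the second site of APOBEC3B: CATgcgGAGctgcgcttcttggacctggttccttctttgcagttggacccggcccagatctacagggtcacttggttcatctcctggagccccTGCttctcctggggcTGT
APOBEC3C: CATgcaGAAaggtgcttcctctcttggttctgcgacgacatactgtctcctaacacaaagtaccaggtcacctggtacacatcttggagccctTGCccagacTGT
APOBEC3D and APOBEC3F, second site: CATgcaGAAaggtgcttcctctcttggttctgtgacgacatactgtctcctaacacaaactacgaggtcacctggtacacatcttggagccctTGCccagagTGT
APOBEC3B and APOBEC3F, first site: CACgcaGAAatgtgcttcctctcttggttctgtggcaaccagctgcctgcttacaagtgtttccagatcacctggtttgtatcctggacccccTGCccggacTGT
APOBEC3G, second site: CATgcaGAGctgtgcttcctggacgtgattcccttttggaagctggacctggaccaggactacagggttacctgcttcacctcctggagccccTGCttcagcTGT
APOBEC3H: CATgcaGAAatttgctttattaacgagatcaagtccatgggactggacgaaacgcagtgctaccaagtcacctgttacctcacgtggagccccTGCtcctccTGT
Over 111 bases the site of APOBEC3A and the second site of APOBEC3B had 0 differences. Over 105 bases the second sites of APOBEC3D and APOBEC3F also had 0 differences, as did the first sites of APOBEC3B and APOBEC3F. APOBEC3C differed from the second site of APOBEC3F at 4 of 105 bases (96.2% identity), whereas the second site of APOBEC3G differed from that of APOBEC3F at 46 (56.2% identity).

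Shared sequence was also counted over whole transcripts in windows of 100 bases. Of the windows of APOBEC3B, 36.5% occurred unchanged in a transcript of another member, and 27.3% in one of APOBEC3A. In GENCODE release 29 the genes APOBEC3A and APOBEC3B overlap by 10432 bases. Windows found in both can therefore be the same stretch of the genome annotated to both genes. In the deposited table, on another build, APOBEC3A ends at 39359188 and APOBEC3B starts at 39378352, so these genes do not overlap there. The share of windows found in another member was 12.7% for APOBEC3A, 13.5% for APOBEC3F, 11.3% for APOBEC3G and 9.18% for APOBEC3D. APOBEC3C and APOBEC3H shared 0 windows of this length with another member. In the deposited table APOBEC3C (39410088 to 39414931) shares 4564 bases with APOBEC3D (39410368 to 39429256). APOBEC3F (39436609 to 39449915) shares 12992 bases with APOBEC3G (39436924 to 39483748). GENCODE release 29, on another build, has 0 bases of overlap for either pair. How reads in shared stretches were counted is not given in the sources used here, so the division of reads within these pairs, and between APOBEC3A and APOBEC3B, is uncertain.

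APOBEC3C and APOBEC3B had the highest APOBEC3 levels in the 5637 line, on the FPKM scale, which divides reads by gene length and depth. APOBEC3C is a single-domain cytoplasmic and nuclear deaminase. It was read at 30.7 FPKM in parental 1, 66.1 in resistant 1 and 138 in resistant 2, from 582, 1371 and 3146 reads. APOBEC3B, a nuclear deaminase that is often raised in tumors, was at 26.5, 37.8 and 25.3 FPKM, from 707, 1105 and 816 reads. APOBEC3C ranked first and APOBEC3B second in all 3 libraries, and APOBEC3C was 1.16-fold above APOBEC3B in parental 1, 1.75-fold in resistant 1 and 5.43-fold in resistant 2. This order rests on the gene length of APOBEC3C in the table, 1309 bases, whereas its main transcript in GENCODE release 29 has 2818. With the lengths of the main transcripts there, APOBEC3C would be at 14.3, 30.7 and 63.9 FPKM and APOBEC3B at 31.9, 45.5 and 30.5, so that APOBEC3C would rank first in resistant 2 alone. Ratios of 1 gene between libraries do not depend on its length.

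APOBEC3F, a double-domain restriction factor of retroviruses, had the third rank in each library, at 4.69, 12.8 and 23.8 FPKM. APOBEC3G, the best known restriction factor of HIV, was at 2.09 FPKM in parental 1, 0.410 in resistant 1 and 1.63 in resistant 2, from 84, 18 and 79 reads. APOBEC3D was at 0.580, 1.46 and 1.88 FPKM, from 21, 58 and 82 reads. By the deposited values the fourth rank belonged to APOBEC3G in parental 1 and to APOBEC3D in both resistant libraries. In the table the length of APOBEC3G is 2775 bases, that of a retained-intron transcript in GENCODE release 29, while its coding transcript there has 1834 bases, and with the main transcripts APOBEC3G would be at 3.16, 0.620 and 2.47 FPKM and take the fourth rank in resistant 2 as well, above APOBEC3D at 1.86. The plot of levels by library shows these ranks.

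**Figure D1:**
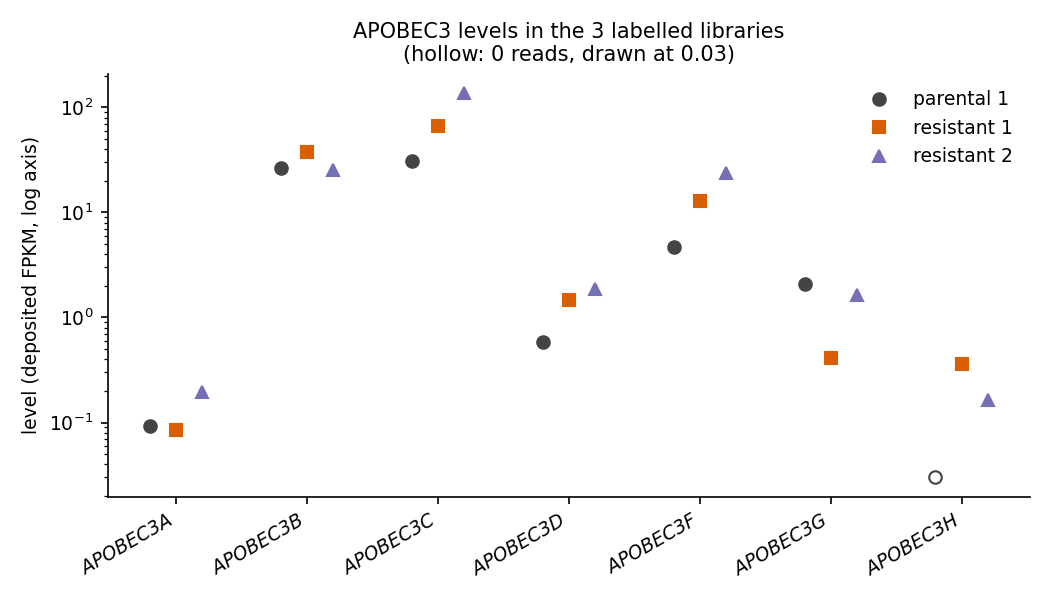
Levels of the 7 APOBEC3 genes, in deposited FPKM on a log axis, in parental 1 (circle), resistant 1 (square) and resistant 2 (triangle); 1 symbol is 1 library and the hollow symbol is a library with 0 reads. APOBEC3C and APOBEC3B stand above the rest, and APOBEC3A and APOBEC3H stay under 0.4 FPKM.

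APOBEC3A and APOBEC3H were close to the limit of detection. APOBEC3A, a potent single-domain deaminase of nuclear DNA, had 2, 2 and 5 reads. The ratio of resistant 1 to parental 1 was 0.862 (95% exact interval 0.0625 to 11.9) and that of resistant 2 to parental 1 was 2.03 (0.332 to 21.3), so no difference was detectable at this depth. APOBEC3H, a single-domain restriction factor, had 0, 6 and 3 reads. With a floor of 3 counts per library for parental 1, its mean in the resistant libraries was at least 1.27-fold higher. This bound rests on resistant 1, at 0.367 CPM, since resistant 2, at 0.173 CPM, lay below the parental floor of 0.213 CPM and gives no direction. The resistant group mean lay below that floor too, at a ratio of 0.871. The authors' group means were 3.55 in the resistant and 2.73 in the parental group for APOBEC3A, and 2.61 and 0.331 normalized counts for APOBEC3H. All intervals and floors given here and below cover counting error only and treat reads as independent molecules.

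APOBEC3C, APOBEC3D and APOBEC3F were higher in both resistant libraries than in parental 1, APOBEC3G was lower in both, and APOBEC3B lay on either side. None of these differences passed the test across all genes. APOBEC3F was 2.58-fold higher in resistant 1 (95% exact counting interval 2.17 to 3.06) and 4.96-fold higher in resistant 2 (4.24 to 5.83). APOBEC3C was 2.03-fold (1.84 to 2.24) and 4.39-fold (4.01 to 4.80) higher, and APOBEC3D 2.38-fold (1.42 to 4.13) and 3.17-fold (1.94 to 5.39) higher. Resistant 2 was thus the higher of the resistant libraries for each of the 3 genes. APOBEC3G was 5.42-fold lower in resistant 1 and 1.31-fold lower in resistant 2, and the interval of the second ratio, 0.554 to 1.05, included 1. For APOBEC3B the ratio to parental 1 was 1.35 (1.22 to 1.48) in resistant 1 and 0.937 (0.846 to 1.04) in resistant 2.

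The fit of both resistant libraries against the parental library was made with edgeR's quasi-likelihood test over 15643 genes. Of the 7 members 5 passed the filter on low counts, each with 18 reads or more in every library, and 0 of the 5 had an adjusted p under 0.05. Among all genes tested 0.876% passed, 0.294% higher and 0.582% lower in the resistant libraries. The log2 ratio was 1.91 ± 0.48 (SE) for APOBEC3F, with an adjusted p = 0.143 (edgeR; unadjusted 0.00273). It was 1.68 ± 0.50 for APOBEC3C (adjusted p = 0.243, edgeR) and 1.47 ± 0.63 for APOBEC3D (adjusted p = 0.481, edgeR). For APOBEC3B it was 0.19 ± 0.38 (adjusted p = 0.951) and for APOBEC3G -1.07 ± 0.72 (adjusted p = 0.727). At an unadjusted p under 0.05, 3 members were counted, APOBEC3C, APOBEC3D and APOBEC3F, all higher in the resistant libraries, beside 9.7% of all genes tested in either direction and 4.85% higher. Both resistant libraries lay above parental 1 for 35.1% of all genes and below it for 34.5%, so these orders alone are common.

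The calls depended on the tool. DESeq2 called 1 member, APOBEC3F (adjusted p = 0.0209), beside 245 of all 15643 genes tested. Without the filter on low counts edgeR called 2, APOBEC3F (adjusted p = 0.00184) and APOBEC3C (adjusted p = 0.00567), beside 534 of all 26434 genes tested. These fits thus called more genes of any kind than the main fit. Over the 3 alternative fits the adjusted p ranged from 0.00184 to 0.0698 for APOBEC3F and from 0.00567 to 0.140 for APOBEC3C, and the log2 ratios were 1.91 and 1.67 to 1.68. With the size factors of DESeq2 edgeR called 0 members, beside 235 of all 15643 genes tested. The single parental library shows no spread of its own and was assumed to vary like the resistant clones, which leaves 1 residual degree of freedom.

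The authors' group means, which cover the clones of each group but carry no error, had the same direction for the 5 members. They include the 3 libraries used above, so the shared direction is partly built in and is no independent check. For APOBEC3C they were 1372 normalized counts in the resistant and 626 in the parental group, a log2 ratio of 1.13. For APOBEC3F they were 495 and 181 (log2 ratio 1.45), and for APOBEC3D 43.2 and 18.2 (1.20). APOBEC3B had 672 and 541 (0.31). APOBEC3G had 28.6 in the resistant and 160 in the parental group, a log2 ratio of -2.45. The ratios of the group means were smaller than those of the 3 libraries for APOBEC3C, APOBEC3D and APOBEC3F and larger in size for APOBEC3G. APOBEC3C had 1371 and 3146 reads in resistant 1 and 2, beside its resistant group mean of 1372 normalized counts. APOBEC3D had 58 and 82 reads, beside 43.2. Reads and normalized counts differ in scale, and the group means give no value per clone. The higher levels of APOBEC3C, APOBEC3D and APOBEC3F thus need not hold for every resistant clone.

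**Figure D2:**
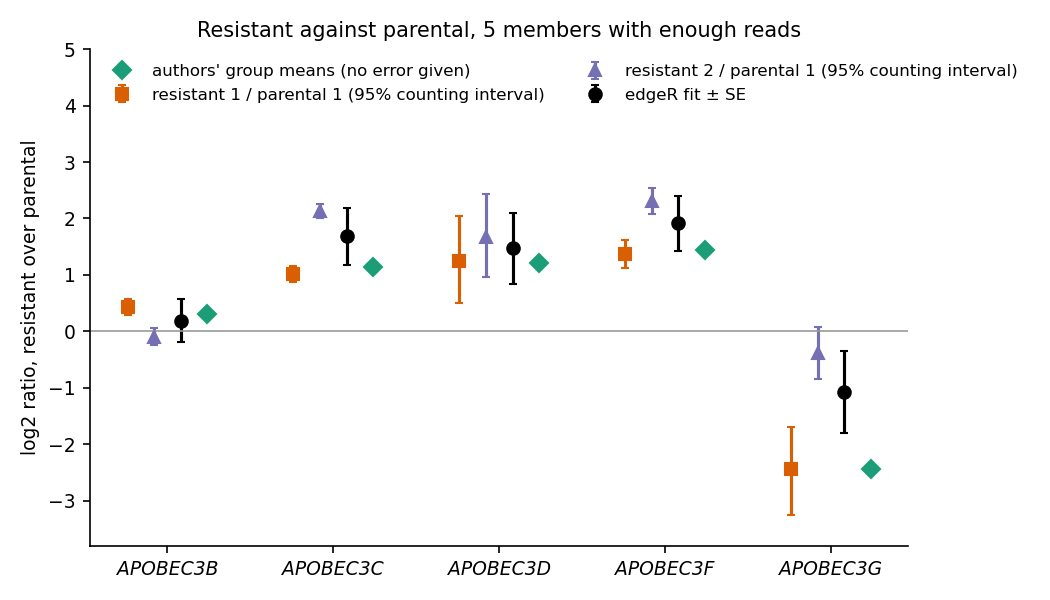
Log2 ratio of resistant over parental for the 5 members with enough reads: each resistant library against parental 1 with its 95% counting interval (square, triangle), the edgeR fit with its SE (circle) and the authors' group means without error (diamond). APOBEC3C, APOBEC3D and APOBEC3F lie above 0 by each measure, APOBEC3G below 0, and APOBEC3B near 0.

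The resistant libraries also differed from each other. APOBEC3G was 4.13-fold higher in resistant 2 than in resistant 1 (95% exact counting interval 2.45 to 7.33), APOBEC3C 2.16-fold (2.03 to 2.30) and APOBEC3F 1.93-fold (1.74 to 2.14). APOBEC3B went the other way, with a ratio of 0.696 (0.635 to 0.762), and for APOBEC3D the interval of 0.940 to 1.90 included 1. On the log2 scale the difference was 2.02 for APOBEC3G, 1.11 for APOBEC3C and 0.95 for APOBEC3F. Over all genes tested, 90% of such differences between the resistant libraries lay from -0.97 to 1.29, and APOBEC3G alone of the 5 members lay outside that range. With 1 library per clone, these ratios compare libraries and have no replicate check.

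Summed over the 7 members, the level was 64.7 FPKM in parental 1, 119 in resistant 1 and 191 in resistant 2. APOBEC3C made up 47.5% of this sum in parental 1, 55.5% in resistant 1 and 72.2% in resistant 2. The share of APOBEC3B was 41.0%, 31.8% and 13.3% in the same order. APOBEC3F had 7.26%, 10.8% and 12.5%, and APOBEC3G 3.23%, 0.344% and 0.855%. As shares of reads the intervals of APOBEC3B did not overlap, at 42.3 to 47.3%, 33.9 to 37.3% and 14.6 to 16.6% (Clopper-Pearson, 95%), nor did those of APOBEC3C, at 34.5 to 39.3%, 42.4 to 45.9% and 58.6 to 61.3%. These intervals compare 3 libraries by counting error, not the groups. With the main transcript lengths the share of the summed FPKM was 58.3%, 49.7% and 24.8% for APOBEC3B and 26.1%, 33.5% and 52.0% for APOBEC3C.

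**Figure D3:**
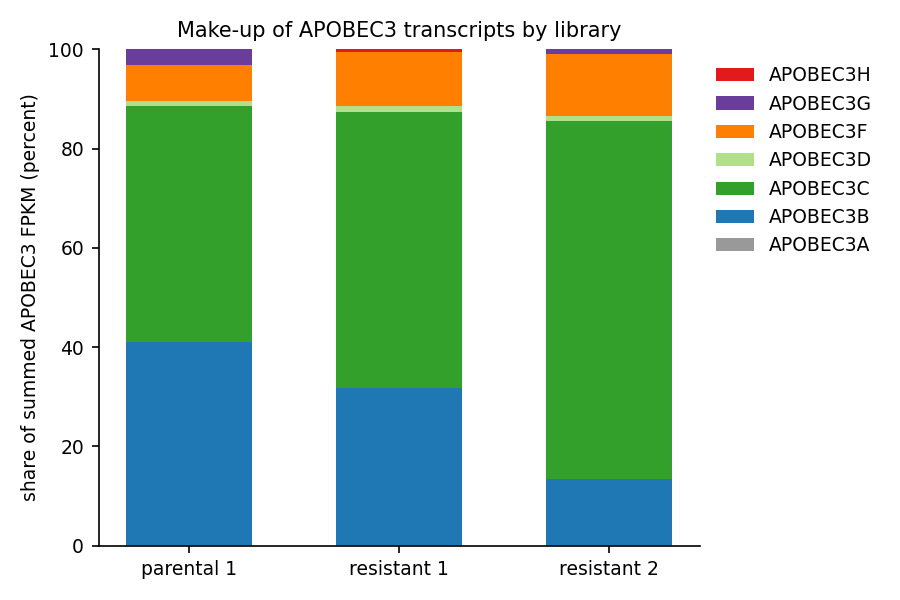
Share of each APOBEC3 gene in the summed FPKM of the 7 genes, in percent, with 1 bar per library. The APOBEC3B segment is 41.0% in parental 1 and 13.3% in resistant 2, and the APOBEC3C segment 47.5% and 72.2%.

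Most genes around the cluster were lower in the resistant libraries than in parental 1. Within 0.5 Mb of it 23 other genes passed the filter, 12 before it, 10 after it and 1 between APOBEC3G and APOBEC3H. Of the 23, 0 had an adjusted p under 0.05 (edgeR), beside 0.876% of all genes tested. At an unadjusted p under 0.05 there were 4 of the 23 (edgeR), beside 9.7% of all genes. DESeq2 called 2, PDGFB and RP4-742C19.12, both higher, beside 245 of all 15643 genes tested, 120 of them higher. The median log2 ratio of the 23 genes was -0.35, beside -0.22 over the 370 genes tested on chromosome 22 and 0.03 over all genes. Of the 23 genes, 14 were lower and 6 higher in both resistant libraries than in parental 1, beside 34.5% lower and 35.1% higher among all genes tested. CBX6, a Polycomb chromobox gene just before the cluster, was at a log2 ratio of 0.07, and CBX7, a chromobox gene just after it, at 0.90 (adjusted p = 0.654, edgeR). PDGFB, a growth factor gene, had 134, 472 and 568 reads and a log2 ratio of 1.69 ± 0.40 (adjusted p = 0.116, edgeR). RP4-742C19.12, a pseudogene between APOBEC3G and APOBEC3H, had 3, 56 and 90 reads (log2 ratio 4.29 ± 0.85, adjusted p = 0.0539, edgeR, and 0.000112 to 0.0268 over the alternative fits). SYNGR1, a synaptic vesicle gene, was at the other end with 92, 10 and 21 reads and a log2 ratio of -2.83 ± 0.62 (adjusted p = 0.0824, edgeR).

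**Figure D4:**
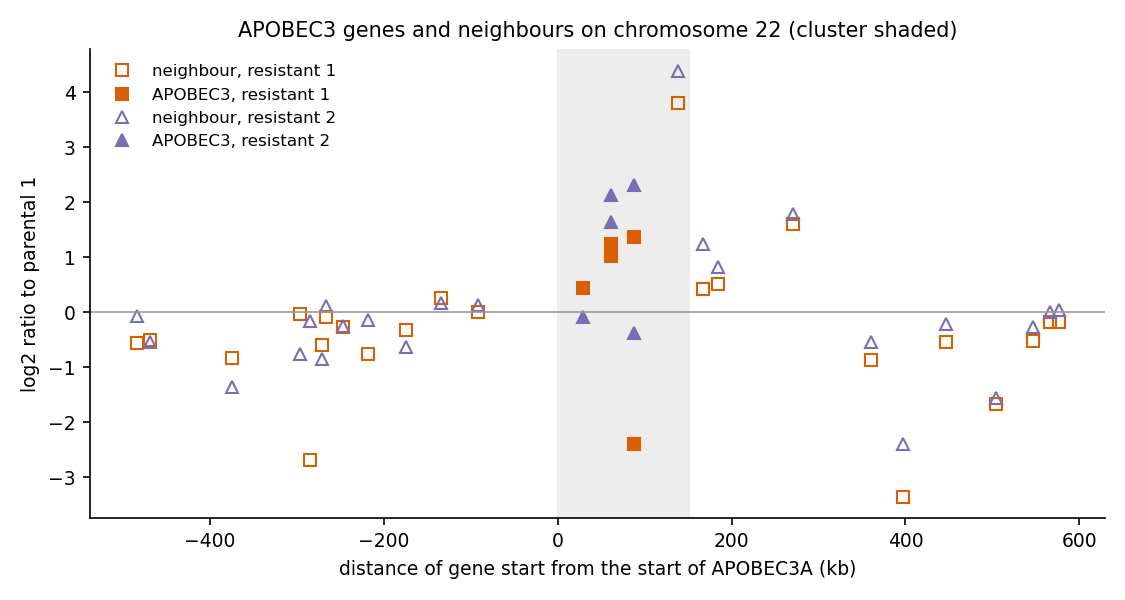
Log2 ratio of resistant 1 (squares) and resistant 2 (triangles) to parental 1 for APOBEC3 genes (filled) and the 23 neighbouring genes (hollow), by distance of the gene start from that of APOBEC3A in kb. Of the 12 neighbours before the shaded cluster 2 lie above 0 in resistant 1 and 3 in resistant 2, and of the 10 after it 3 and 5, while APOBEC3C, APOBEC3D and APOBEC3F lie above 0 in both.

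APOBEC3C, the member with the most reads over the 3 libraries together, was compared with the 3584 genes of mean CPM within 2-fold of its own. The 5 genes with the nearest pair of log2 ratios to parental 1 were H1F0, RGL3, CXCL5, SGK1 and CDH13, at distances of 0.109 to 0.234 on the log2 scale. H1F0, which encodes a linker histone and also lies on chromosome 22, was at 79.2, 153 and 328 CPM, and CXCL5, a chemokine gene, at 48.2, 89.0 and 199 CPM. The likeness rests on 3 libraries. By the authors' group means the log2 ratios of the 5 genes ranged from 0.38 for SGK1 to 1.54 for RGL3, beside 1.13 for APOBEC3C.

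Of the 4 deaminases of free nucleosides and nucleotides 0 passed the test (edgeR, 0 at an unadjusted p under 0.05 and 0 by DESeq2), with a median log2 ratio of 0.01. Of the other AID/APOBEC genes only APOBEC2 and APOBEC3B-AS1 were found in the table, with at most 3 reads in any library. CDA, which inactivates gemcitabine by deamination of the free nucleoside, was at 6.46, 12.4 and 12.6 CPM (log2 ratio 0.95 ± 0.45, adjusted p = 0.546, edgeR), while the authors' group means gave a log2 ratio of -0.10. DCTD, the deaminase of deoxycytidylate, was at 70.5, 70.2 and 69.0 CPM.

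Uracil excision and base excision repair genes were read in all libraries. Of 16 genes 0 passed the test in either direction (edgeR, 1 at an unadjusted p under 0.05 and 0 by DESeq2), with a median log2 ratio of -0.26 beside 0.03 over all genes, and 14 of the 16 ratios were below 0. UNG, the main uracil glycosylase, was at 138, 133 and 87.1 CPM. APEX1, which cuts the abasic site, was at 372, 302 and 255 CPM, and FEN1, the flap endonuclease, at 176, 108 and 95.9 CPM (log2 ratio -0.79 ± 0.35, adjusted p = 0.499, edgeR). By the authors' group means the median of the list was -0.05.

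The genes of 3 routes known to act on APOBEC3 transcription were read alongside. Of the 12 NF-kB and protein kinase C genes 0 passed (edgeR, 1 at an unadjusted p under 0.05 and 0 by DESeq2), with a median log2 ratio of 0.27. BIRC3, an NF-kB target that limits cell death, had the unadjusted p under 0.05, at 21.3, 42.6 and 46.8 CPM. NFKB2, a subunit of the noncanonical pathway, was at 64.9, 85.2 and 154 CPM (0.88 ± 0.44, adjusted p = 0.576, edgeR), and RELA, a subunit of the canonical one, at 177, 147 and 149 CPM. Of the 18 E2F, DREAM and MYBL2 genes 0 passed (edgeR, 0 at an unadjusted p under 0.05 and 0 by DESeq2), with a median of 0.14. MYBL2 was at 297, 196 and 146 CPM (-0.80 ± 0.37, adjusted p = 0.530, edgeR).

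In interferon signalling 1 of 17 genes fell and 0 rose at an adjusted p under 0.05 (edgeR, 2 at an unadjusted p under 0.05, both lower), beside 0.582% lower and 0.294% higher over all genes. Of the 17 fitted ratios 12 were below 0 and 5 above, with a median log2 ratio of -0.13. The gene that fell was OAS1, an interferon-induced sensor of double-stranded RNA, with 713, 65 and 61 reads (-3.75 ± 0.38, adjusted p = 0.00159, edgeR). DESeq2 called OAS1 too, and no other gene of the list. The kinase JAK1 of the receptor was at 119, 131 and 112 CPM. The other unadjusted p under 0.05 was that of MX1, an interferon-induced antiviral GTPase, with 96, 38 and 41 reads (log2 ratio -1.54 ± 0.52, adjusted p = 0.328, edgeR).

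Among the other genes read alongside, GDF15, a stress-induced cytokine, rose, with 18, 375 and 1527 reads (log2 ratio 5.43 ± 0.89, adjusted p = 0.0244, edgeR). It passed in the 3 alternative fits too.

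**Figure D5:**
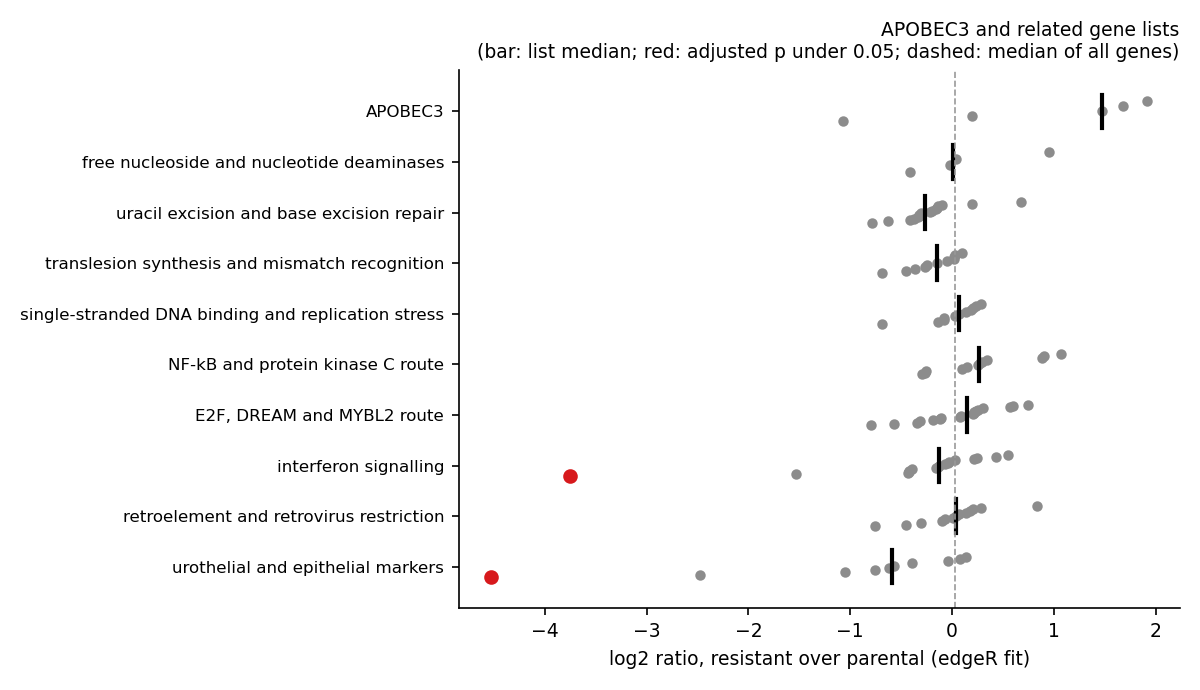
Log2 ratio of resistant over parental (edgeR fit) for each tested gene of 10 of the 11 lists with 3 or more tested genes; a bar marks the list median, the dashed line the median of all genes, and large red points an adjusted p under 0.05. GDF15 belongs to the list not drawn. Large points appear for OAS1 in interferon signalling and KRT5 among the epithelial markers, and none in the APOBEC3 row.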

How the data were processed

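The members and gene lists were chosen with earlier results of these data known. The deposited table of 29960 genes holds read counts per library (raw, not normalized), FPKM made by the authors from those counts and a gene length, and 1 signal per group, deposited as a mean over that group's normalized counts. Per the labels, base calls came from CASAVA 1.8 and the build is hg19. The aligner, the counting rule and the strand setting are not given in the sources used here. The columns with the authors' fold changes and p-values from DESeq2 and 6 per-library columns without a sample label were not used.

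Counts were scaled by TMM (factors 0.974, 1.03 and 0.994) and tested with edgeR 4.0.16 in R 4.3.3 (filterByExpr, glmQLFit, glmQLFTest, two-sided, Benjamini-Hochberg over all genes tested). The SE is the size of the log2 ratio divided by the square root of F. DESeq2 1.42.0, its size factors and no filter were alternatives. P-values measure only the spread between these clones, and that spread was largely pooled across genes (edgeR, 1 residual degree of freedom beside a median of 8.95 prior ones). For a single gene only the 2 resistant libraries show a spread. Ratios of group means used a pseudocount of 1. Ratios between libraries have exact conditional 95% intervals. The floor of 3 counts corresponds to 0.213, 0.183 and 0.173 CPM. The named genes were the members, neighbours within 0.5 Mb, list genes that were called or among the 4 with the highest level, and the 5 genes nearest to the member with the most reads in sum; not all are reported. Python 3.11.15 and scipy 1.17.1 were used. Some results are not reported here.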

Additional observations from a re-analysis of the deposited data

How the results depend on the processing

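The number of genes with an adjusted p under 0.05 was 137 in the main fit (46 higher, 91 lower), 235 with the size factors of DESeq2 (96 higher, 139 lower), 245 with DESeq2 (120 higher, 125 lower) and 534 without the filter on low counts (273 higher, 261 lower). Of the APOBEC3 members 0 were called with the size factors of DESeq2, 1 with DESeq2 and 2 without the filter; the cause was not tested. Among the 23 neighbours 2 were called with the size factors of DESeq2 (RP4-742C19.12 and SYNGR1), 2 with DESeq2 (RP4-742C19.12 and PDGFB) and 3 without the filter (RP4-742C19.12, SYNGR1 and PDGFB). KRT17 passed beside KRT5 in all 3 alternative fits. The median of the 23 neighbours, -0.35, was -0.20 by the authors' group means with a pseudocount of 1 or 10, and ranged from -0.32 to -0.16 when either resistant library was left out. The log2 ratio of APOBEC3G was -0.39 without resistant 1 and -2.41 without resistant 2, and that of APOBEC3B was -0.09 and 0.43. APOBEC3C had the highest FPKM in 3 of 3 libraries by the deposited lengths and in 1 by the lengths of GENCODE release 29 main transcripts, an alternative chosen after seeing the data. No paired analysis was made, because by the paper the clones were derived independently and a shared replicate number is no pairing. Leaving out the parental library leaves no comparison. Depth limits APOBEC3A and APOBEC3H, with 6 reads or fewer in each library.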

Other observations

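Genes that meet APOBEC3 products elsewhere were read as well. Of 13 retroelement and retrovirus restriction genes tested, 0 passed the test (edgeR, 0 at an unadjusted p under 0.05 and 0 by DESeq2), with a median log2 ratio of 0.04 beside 0.03 over all genes. ADAR, which deaminates adenosine in double-stranded RNA, was at 401, 413 and 351 CPM in parental 1, resistant 1 and resistant 2, and MOV10, a helicase that restricts retroelements, at 161, 157 and 183 CPM. BST2, the tetherin gene and the member of the list that missed the filter, had 3 reads or fewer in each library. Of 11 translesion synthesis and mismatch recognition genes 0 passed (edgeR, 0 at an unadjusted p under 0.05 and 0 by DESeq2), with a median of -0.14, and REV1, a polymerase that inserts cytosine opposite abasic sites, was at 50.7, 48.7 and 54.4 CPM. Of 11 single-stranded DNA binding and replication stress genes 0 passed (edgeR, 0 at an unadjusted p under 0.05 and 0 by DESeq2), with a median of 0.07. RPA1, the large subunit of the protein that coats single-stranded DNA, was at 122, 121 and 99.4 CPM, and each of the 11 genes was lower in resistant 2 than in resistant 1. Of 8 fibroblast and endothelial markers 6 were in the table, and COL1A1 held nearly all of their reads, at 113, 96.8 and 61.2 CPM. Of the myeloid markers only CD14 passed the filter, with 3, 12 and 18 reads (log2 ratio 2.02 ± 1.12, adjusted p = 0.643, edgeR).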
